A study of Mus musculus with 167 samples.

Results

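The 38 genes described here, of the cell cycle and of DNA replication, were followed through RNA sequencing of developing mouse B cells, in 44 of the 167 samples of a study of the cohesin-release factor Wapl, its repression by the transcription factor Pax5, and the folding of the immunoglobulin heavy-chain locus. The 38 genes were taken by symbol from a fixed list, and all 38 had a row in each of the 44 RNA libraries, among 24732 gene rows in 40 libraries and 24703 in the other 4. They were sorted by role into 9 genes of G1 and the G1/S step, 10 of replication licensing and the fork, 3 of nucleotide supply, 7 of mitotic entry, and 9 of the spindle and mitotic exit. The list named genes, not measured values, but it was chosen with earlier results of these data known.

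Cells enter the cycle when D-type cyclins activate Cdk4 and Cdk6, which phosphorylate the retinoblastoma protein and free E2F factors to switch on genes for cyclin E, origin licensing and DNA synthesis. The genes used in mitosis (cyclin B, Cdk1, Aurora kinases, kinetochore proteins) are transcribed later in the cycle, under the DREAM and MuvB complexes and FoxM1. In the bone marrow, pro-B cells divide under interleukin 7, pre-B cells pass through a burst of division after the pre-B receptor appears and then rest, and immature B cells are mostly outside the cycle.

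All libraries came from C57BL/6 mice and polyadenylated RNA. They are grouped here into sets by genotype series and neighbouring library numbers in the titles; no label calls such a set a batch or a sequencing run. One set held pro-B and pre-B cells sorted from bone marrow of Wapl(+/+) and Wapl(∆P1,2/∆P1,2) mice, 2 libraries per group; the deleted elements are, as background, sites through which Pax5 represses Wapl. A second set held pro-B cells of the same genotypes grown for 3 days in culture, with 2 Wapl(+/+) and 3 Wapl(∆P1,2/∆P1,2) libraries. Another set compared 3 libraries of sorted Pax5(+/+) pro-B cells with 2 of sorted Pax5(-/-) progenitors. A further set, spread over 3 ranges of library numbers, held sorted pro-B cells labelled Eed(F/F) Rag1-cre in 5 libraries, with 3 Eed(F/+) Rag1-cre and 1 Eed(F/F) library without Cre as controls; Eed is a subunit of Polycomb repressive complex 2, and Rag1-cre acts in lymphoid cells. Sorted immature B cells made up 3 further sets with alleles of the immunoglobulin heavy-chain locus: Igh(+/+) and Igh(890-inv/+), 2 libraries each; Igh(+/+) with 3 libraries, Igh(CBE/+) and Igh(CBE-inv/+) with 2 each; and Igh(+/∆890), Igh(V8-8/∆890) and Igh(V8-8-inv/∆890), 2 libraries each, which all carried one ∆890 allele. No label gave an age or said which libraries came from separate animals, so the p-values measure the spread between these libraries, which may in part be technical.

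Values were in TPM, each gene's share of its library per transcript length on a total of 1000000, and the read depth behind them was unknown. Between 11239 and 12447 genes reached 1 TPM. The Pax5 row read 39.1 and 43.0 TPM in Pax5(-/-) progenitors against 342 to 391 TPM in their controls, and the Wapl row read 30.8 to 52.8 TPM in all Wapl(∆P1,2/∆P1,2) libraries against 7.41 to 12.9 TPM in Wapl(+/+). The Eed row was not lower in the libraries labelled Eed(F/F) Rag1-cre (123 to 222 TPM) than in their controls (58.4 to 122 TPM), so it did not check that label. One library stood apart: in Eed(F/+) Rag1-cre replicate 1 the 38 genes summed to 5173 TPM, against 10977 to 15698 TPM in the other 8 libraries of that set, and 34 of the 38 genes had their lowest value of the 9 there. Results that rest on it are given with and without it.

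**Figure D1:**
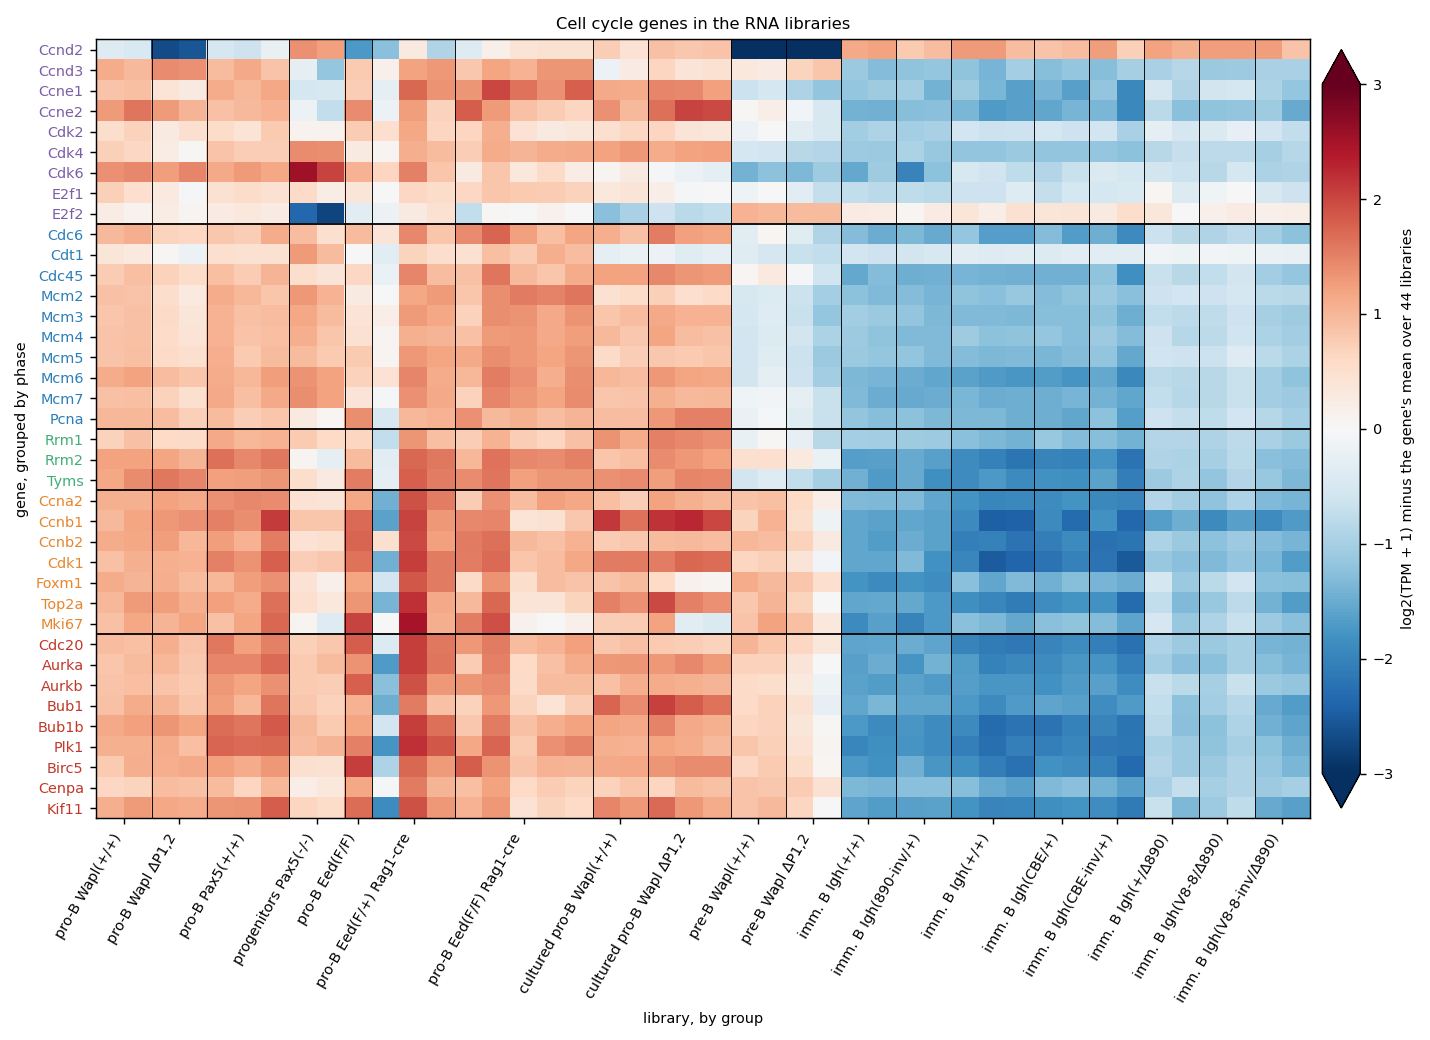
Level of each of the 38 genes (rows, grouped by role and coloured alike within a group) in each of the 44 libraries (columns, by group), as log2(TPM + 1) minus the mean of that gene over all libraries; red is above and blue below the mean, and the scale ends at -3 and 3. Immature B libraries are blue for most genes, Ccnd2 and E2f2 follow other patterns, and the first Eed(F/+) Rag1-cre library is pale or blue among red neighbours.

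Summed over the 38 genes, the RNA fell into 3 ranges by stage: 9737 to 15698 TPM in sorted pro-B cells other than the library that stood apart, 5432 to 6981 TPM in the 4 pre-B libraries, and 2546 to 3871 TPM in the 17 immature B libraries, or 0.255% to 0.387% of the library. Cultured pro-B cells lay between 9903 and 11924 TPM and Pax5(-/-) progenitors at 8541 and 9663 TPM. These levels come from separate sets, and set and stage cannot be told apart outside the set that held both pro-B and pre-B cells, so they are a description without a test. Within the immature B cells, the set with the ∆890 allele lay higher (3110 to 3871 TPM) than the other 2 (2546 to 2844 TPM), with no overlap.

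Mki67, the proliferation marker Ki-67, read 22.4 to 64.9 TPM in the 17 immature B libraries (median 38.1), 116 to 214 TPM in pre-B cells and 91.0 to 514 TPM in sorted pro-B cells. Top2a, the topoisomerase that untangles sister chromosomes, read 32.7 to 99.5 TPM in immature B cells, 165 to 337 TPM in pre-B cells and 63.2 to 766 TPM in sorted pro-B cells. The lowest pro-B value of each was in the library that stood apart. For 21 of the 38 genes every immature B library lay below every pre-B library. The 17 exceptions were Ccnd2, Ccne1, Cdk2, Cdk4, Cdk6, E2f1, Cdc6, Cdt1, Cdc45, Mcm2 to Mcm6, Pcna, Rrm1 and Tyms, so that all genes of mitotic entry and of the spindle were among the 21. How many of all genes had this order was not counted, so the 21 cannot be set against a background.

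Ccnd2, which encodes cyclin D2, had another order. It read 195 to 290 TPM in immature B cells (median 262), 280 and 307 TPM in Pax5(-/-) progenitors, 160 to 220 TPM in cultured pro-B cells, 17.4 to 163 TPM in sorted pro-B cells and 6.85 to 10.7 TPM in pre-B cells. Immature B cells, at the lowest sums of cell cycle RNA, thus held Ccnd2 RNA above every sorted pro-B library. Ccnd3, encoding cyclin D3, which mouse pre-B cells are known to require for their expansion, ran the other way: 277 to 399 TPM in immature B cells, 854 to 1291 TPM in pre-B cells and 807 to 1932 TPM in sorted pro-B cells. E2f2, an E2F family factor, was highest in pre-B cells at 614 to 660 TPM, stood at 320 to 457 TPM in immature B cells and 191 to 439 TPM in sorted pro-B cells, and was lowest in Pax5(-/-) progenitors at 46.1 and 61.7 TPM.

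**Figure D2:**
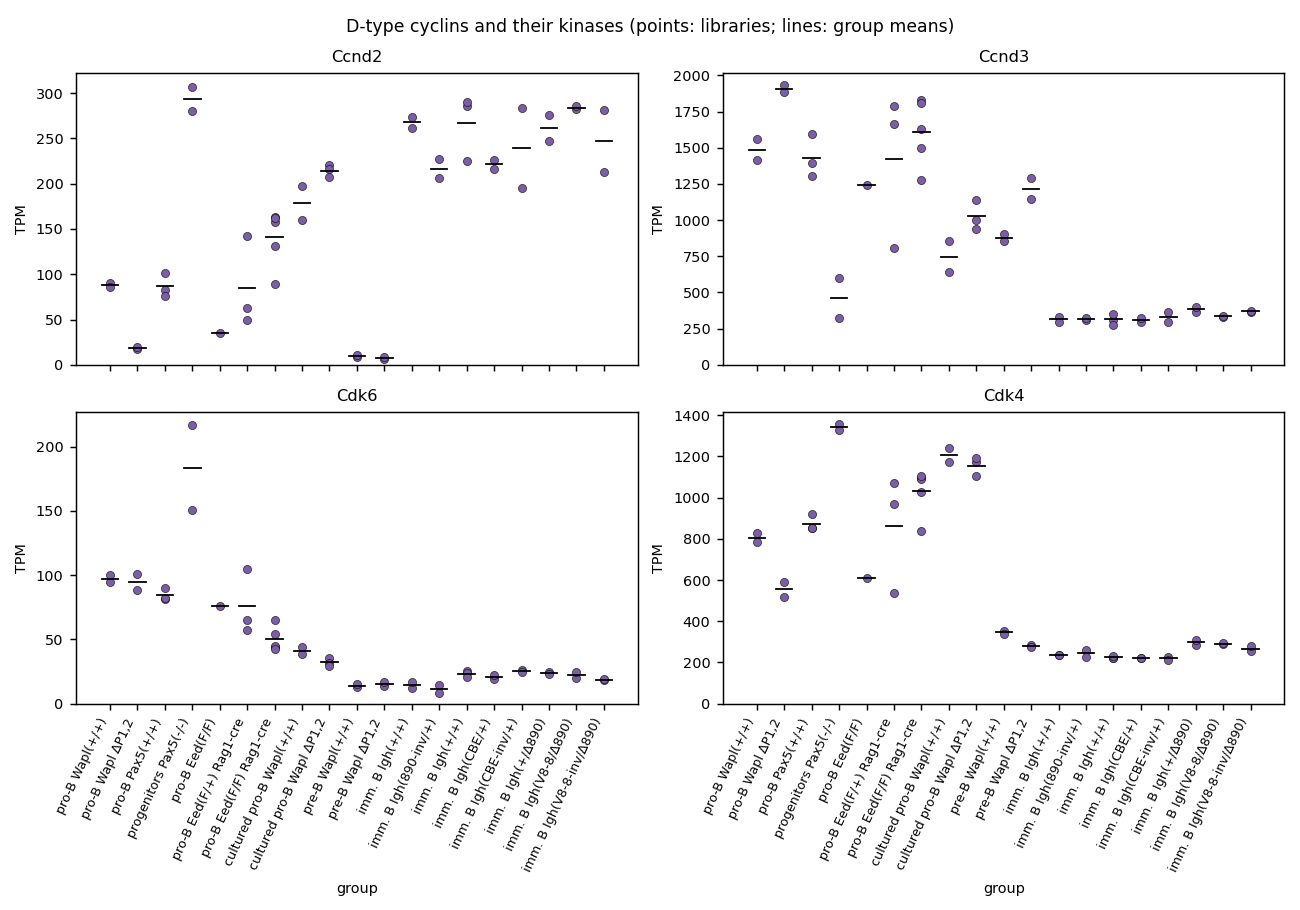
TPM of Ccnd2, Ccnd3, Cdk6 and Cdk4 in every library by group; points are libraries and short lines are group means, each axis starting at 0. Ccnd2 lies between 6.85 and 10.7 TPM in pre-B cells and between 195 and 290 TPM in immature B cells, while Ccnd3, Cdk4 and Cdk6 are low in immature B cells.

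Pre-B and pro-B cells of Wapl(+/+) mice, from the same set, answer how these genes change with stage. Genes used before and during DNA synthesis were lower in pre-B cells, and genes used in mitosis mostly did not pass the test. By limma with Benjamini-Hochberg adjustment over all 12465 genes tested (threshold 0.05), 22 of the 38 genes were lower in pre-B cells and 1 was higher. Of all genes tested 33.8% were called lower and 23.8% higher. By role, 8 of 9 genes of G1 and G1/S were lower and 1 higher, 10 of 10 of licensing and the fork were lower, 3 of 3 of nucleotide supply were lower, 0 of 7 of mitotic entry were called and 1 of 9 of the spindle was lower. None of the 7 mitotic entry genes had an unadjusted p under 0.05 (the count is 0), against 3 of the 9 spindle genes. Of all 12465 genes tested, 7768 had an unadjusted p under 0.05. The median log2 difference was -0.69 over the 38 genes, -1.23 over licensing and the fork, -0.18 over mitotic entry and -0.27 over the spindle, against -0.08 over all genes tested. A lower value in such bulk samples can mean fewer cells in a phase or less RNA per cell, which cannot be told apart.

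**Figure D3:**
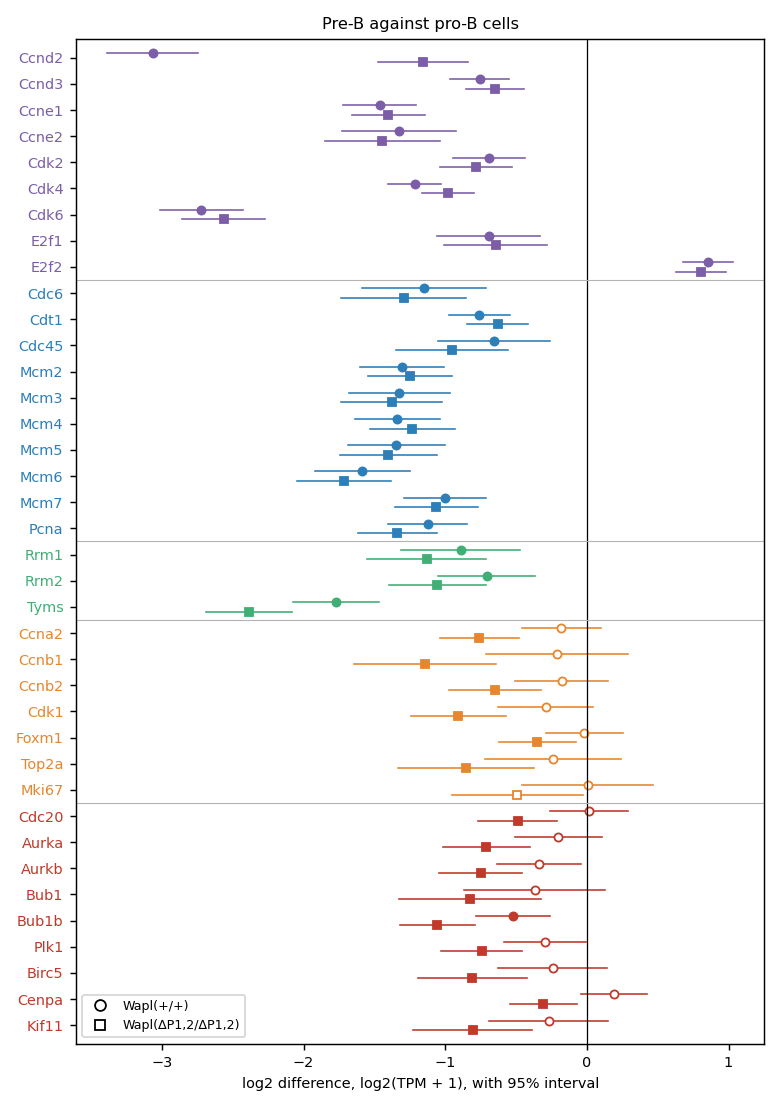
Log2 difference of pre-B against pro-B cells on the log2(TPM + 1) scale with its 95% interval, for each gene, coloured by role; circles are Wapl(+/+), squares Wapl(∆P1,2/∆P1,2), and filled symbols passed an adjusted p of 0.05. In Wapl(+/+) the first 3 roles lie left of 0 except for E2f2, while mitotic entry and spindle genes lie near 0 and are mostly open symbols.

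Among the G1 genes, Ccnd2 read 90.1 and 85.9 TPM in Wapl(+/+) pro-B cells and 8.65 and 10.7 TPM in pre-B cells. Its log2 difference was -3.07 ± 0.14 (SE, adjusted p = 1.62e-06), or 8.37-fold lower. Cdk6, a kinase partner of D-type cyclins, read 94.8 and 99.8 TPM against 12.9 and 15.0 TPM, a difference of -2.72 ± 0.13 (adjusted p = 1.80e-06). Neither gene's groups overlapped, and these were the largest changes among the 38. Cdk4, the other partner, read 826 and 783 TPM against 352 and 340 TPM (-1.22 ± 0.08, adjusted p = 9.61e-06). Ccnd3 read 1559 and 1414 TPM against 903 and 854 TPM (-0.76 ± 0.09, adjusted p = 0.000203), so that it remained the most abundant of the 38 in pre-B cells. Ccne1, encoding cyclin E1, which starts S phase with Cdk2, read 61.6 and 63.9 TPM against 21.2 and 23.2 TPM (-1.46 ± 0.11, adjusted p = 2.09e-05). The second E-type cyclin, Ccne2, fell by 1.32 ± 0.17. E2f1, an activating E2F factor, read 92.7 and 80.8 TPM against 50.7 and 55.6 TPM (-0.69 ± 0.16, adjusted p = 0.00596). E2f2 was the 1 gene that rose, from 371 and 344 TPM to 660 and 634 TPM, a log2 difference of 0.86.

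The licensing genes moved together. Mcm5, a subunit of the ring-shaped helicase that unwinds DNA, read 442 and 456 TPM in pro-B cells and 163 and 190 TPM in pre-B cells (-1.35 ± 0.15, adjusted p = 0.000137). The largest change in the ring was in Mcm6 (-1.59 ± 0.14), and Mcm2, Mcm3, Mcm4 and Mcm7 differed by -1.31, -1.32, -1.34 and -0.999. Cdc6, which loads the ring onto origins, read 32.8 and 35.5 TPM against 12.9 and 17.0 TPM (-1.15 ± 0.19, adjusted p = 0.00122). Pcna, the sliding clamp of DNA polymerase, read 993 and 998 TPM against 430 and 485 TPM (-1.12 ± 0.12, adjusted p = 0.000126). In nucleotide supply, Tyms, which makes thymidylate, read 55.5 and 67.3 TPM against 16.0 and 18.4 TPM (-1.77 ± 0.13, adjusted p = 1.77e-05). Rrm2, the regulated subunit of ribonucleotide reductase, read 483 and 480 TPM against 291 and 298 TPM (-0.71 ± 0.15, adjusted p = 0.00411). In none of these genes did the pro-B and pre-B libraries overlap.

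Of the 16 genes of mitotic entry and the spindle 5 overlapped between the stages (Mki67, Cdc20, Ccnb1, Top2a and Foxm1), 10 lay lower in both pre-B libraries and Cenpa lay higher, with 1 of the 16 passing the test. The share of all genes without overlap between these 2 groups of 2 libraries was not counted. Mki67 read 171 and 208 TPM in pro-B cells and 167 and 214 TPM in pre-B cells, a log2 difference of 0.00 with a 95% interval of -0.46 to 0.47. Cdc20, which directs the anaphase-promoting complex to its targets, read 324 and 315 TPM against 344 and 303 TPM (0.01, interval -0.26 to 0.29). Ccnb1, the mitotic cyclin B1, read 39.8 and 46.3 TPM against 32.3 and 42.3 TPM (-0.21, interval -0.71 to 0.29). The intervals of these 3 genes include 0 but also differences of up to 0.29 to 0.71 in size, so a smaller change was not detectable. Top2a read 335 and 407 TPM against 291 and 337 TPM (-0.24, interval -0.72 to 0.24). Plk1, a kinase of mitotic entry and spindle assembly, read 222 and 222 TPM against 187 and 174 TPM (-0.30, adjusted p = 0.0736). Birc5, survivin of the chromosomal passenger complex, read 98.2 and 121 TPM against 87.2 and 97.7 TPM (-0.24, adjusted p = 0.248). The spindle gene that passed was Bub1b, a checkpoint kinase, with a difference of -0.52. The ratio of summed licensing to summed spindle TPM was 2.29 and 2.35 in Wapl(+/+) pro-B cells and 1.05 and 1.19 in pre-B cells.

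**Figure D4:**
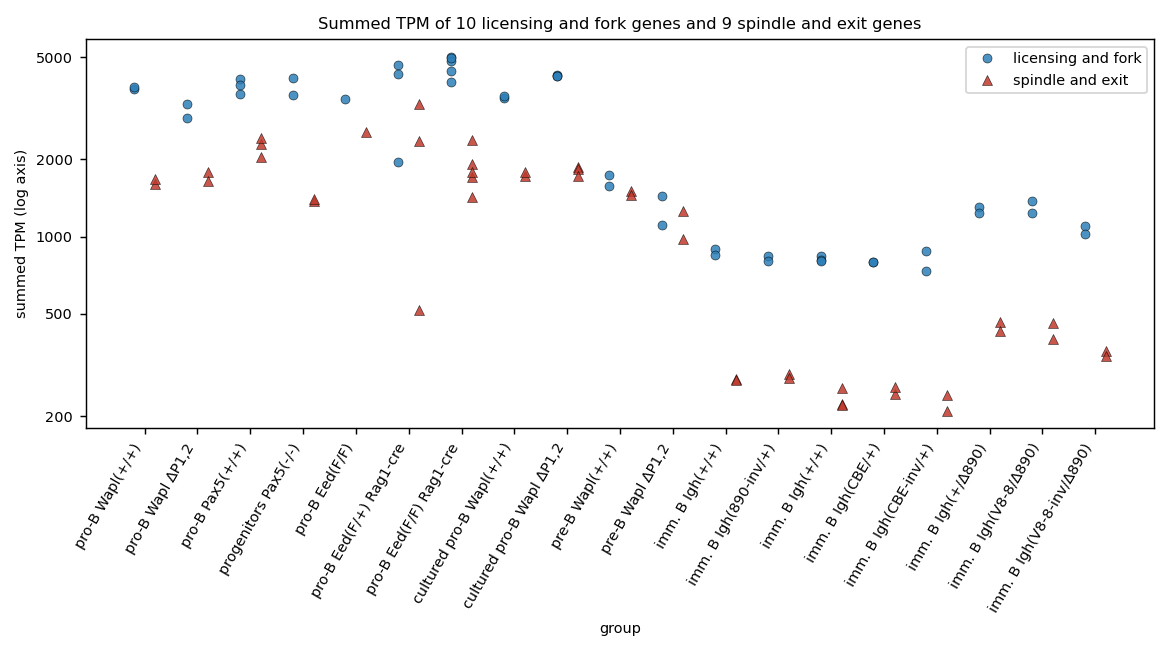
Summed TPM of the 10 licensing and fork genes (circles) and the 9 spindle and exit genes (triangles) in every library by group, on a log axis. The 2 sums nearly meet in pre-B cells, where their ratio is 1.05 to 1.19, lie apart in pro-B and immature B cells, and are both lowest among pro-B libraries in one Eed(F/+) Rag1-cre library.

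A further 60 genes of the cycle, outside the 38, gave 31 lower and 3 higher in pre-B cells. The 6 largest changes were all lower and all in genes of DNA synthesis or chromatin assembly. Gins2 and Gins1, of the helicase complex, differed by -1.86 and -1.37, Orc1, of the origin recognition complex, by -1.56, Tk1, thymidine kinase, by -1.53, Lig1, DNA ligase I, by -1.48, and Chaf1a, of the histone chaperone CAF-1, by -1.32. Of 12 drivers and brakes of division, 6 were higher and 2 lower, and those called are named here. Myc, which drives growth, fell by 4.51 on the log2 scale, and Cdkn1a, the Cdk inhibitor p21, fell by 1.99. Klf2 (3.78), Btg1 (2.29) and Btg2 (1.82), all known for restraining division in lymphocytes, rose, as did Ccng2 (1.003), the interleukin 7 receptor gene Il7r (0.60) and the Cdk inhibitor gene Cdkn1b (0.54).

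Some markers of other cells moved with stage. The 6 myeloid markers summed to 1152 and 2354 TPM in Wapl(+/+) pro-B cells and 1269.7 and 2257 TPM in pre-B cells. That sum overlapped between the stages, as did Lyz2 (188 and 272 TPM against 215 and 272 TPM). Of the 6 markers Mpo, made by dividing myeloid precursors, read 52.4 and 84.9 TPM in pro-B cells and 141 and 188 TPM in pre-B cells. Elane read 37.0 and 60.0 TPM against 113 and 132 TPM. The 5 erythroid markers summed to 24.0 and 31.6 TPM against 77.3 and 95.8 TPM. Their part in the stage differences was not tested. The pro-B markers summed to 8017 and 8203 TPM in pro-B cells and 62.0 and 74.8 TPM in pre-B cells, which goes with the labels.

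Promoter sequences are shown for 5 of these genes because the replication genes were called lower in pre-B cells, here Mcm5 and Mcm6, while most mitotic genes were not called, here Cdk1, Cdc20 and Top2a. They were picked after the motifs had been counted. RefSeq (GRCm38.p6) gave a promoter window for 32 of the 38 genes, and the 250 bases before the start were searched on both strands for the CHR element (TTTGAA or TTCGAA), through which DREAM and MuvB act, for the CCAAT box (CCAAT), and for an E2F site (TTTCCCGC, TTTCGCGC, TTTGCCGC or TTTGGCGC). Matches on either strand are in capitals, and overlapping matches run together.
Mcm5 (chr8:75109259-75109508, plus strand): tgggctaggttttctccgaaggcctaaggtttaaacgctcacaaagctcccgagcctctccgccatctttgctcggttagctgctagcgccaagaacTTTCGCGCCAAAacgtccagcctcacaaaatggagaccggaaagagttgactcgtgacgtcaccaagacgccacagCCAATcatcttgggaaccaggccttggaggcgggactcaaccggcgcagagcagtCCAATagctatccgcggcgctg
Mcm6 (chr1:128359706-128359955, minus strand): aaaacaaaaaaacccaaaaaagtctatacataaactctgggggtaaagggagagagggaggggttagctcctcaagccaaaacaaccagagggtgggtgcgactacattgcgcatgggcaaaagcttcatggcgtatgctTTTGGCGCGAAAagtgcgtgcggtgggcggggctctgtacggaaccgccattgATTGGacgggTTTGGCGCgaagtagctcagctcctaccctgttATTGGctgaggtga
Cdk1 (chr10:69352913-69353162, minus strand): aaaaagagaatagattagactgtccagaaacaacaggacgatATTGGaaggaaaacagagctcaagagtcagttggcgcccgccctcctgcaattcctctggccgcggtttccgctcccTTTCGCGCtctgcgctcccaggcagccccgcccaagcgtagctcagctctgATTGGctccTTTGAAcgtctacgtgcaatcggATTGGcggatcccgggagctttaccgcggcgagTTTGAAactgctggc
Cdc20 (chr4:118437344-118437593, minus strand): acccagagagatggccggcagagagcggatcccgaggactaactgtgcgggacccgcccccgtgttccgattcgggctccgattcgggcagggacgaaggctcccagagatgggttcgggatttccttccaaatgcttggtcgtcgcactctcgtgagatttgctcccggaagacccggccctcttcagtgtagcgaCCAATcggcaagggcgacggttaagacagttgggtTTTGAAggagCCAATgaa
Top2a (chr11:99024190-99024439, minus strand): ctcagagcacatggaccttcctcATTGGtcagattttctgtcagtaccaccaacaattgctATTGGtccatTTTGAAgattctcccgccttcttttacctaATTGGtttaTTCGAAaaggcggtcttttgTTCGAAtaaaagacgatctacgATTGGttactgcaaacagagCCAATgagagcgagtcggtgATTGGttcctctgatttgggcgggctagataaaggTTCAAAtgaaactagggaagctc
The Mcm5 and Mcm6 stretches held 2 and 3 E2F matches and no CHR match, Cdk1 held 2 CHR matches and 1 E2F match, and Cdc20 and Top2a held 1 and 4 CHR matches and no E2F match. All 5 held CCAAT. An E2F match lay in 1 of 7 G1 and G1/S genes with a window, in 4 of 9 licensing genes, in 0 of 3 nucleotide genes, in 1 of 5 mitotic entry genes and in 0 of 8 spindle genes, against 2.16% of 27025 genes. A CHR match together with CCAAT lay in 1 of 7 G1 and G1/S genes, 3 of 9 licensing genes, 0 of 3 nucleotide genes, 4 of 5 mitotic entry genes and 3 of 8 spindle genes, against 7.00% of all genes. A match of letters is a description and not a binding site.

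The same stage comparison in Wapl(∆P1,2/∆P1,2) cells called more of the genes. Of the 38, 36 were lower in pre-B cells, 1 was higher (E2f2, 0.80) and Mki67 was not called (-0.49, adjusted p = 0.0707), with 32.5% of all genes called lower and 20.8% higher. Mitotic entry genes were lower in 6 of 7 cases and spindle genes in 9 of 9. Their medians were -0.76 and -0.75, against -1.27 for licensing and the fork and -0.10 over all genes tested. The largest change was in Cdk6, which read 88.2 and 101 TPM in mutant pro-B cells and 13.6 and 16.9 TPM in mutant pre-B cells (-2.56 ± 0.13). Tyms came next, with 74.8 and 69.2 TPM against 14.2 and 11.8 TPM (-2.39 ± 0.13), then Mcm6 with 367 and 339 TPM against 124 and 92.5 TPM (-1.71 ± 0.14). None of these 3 overlapped between stages. Ccne2 read 26.5 and 22.0 TPM against 9.57 and 7.08 TPM (-1.44 ± 0.17). Mcm5 read 366 and 339 TPM against 156 and 113 TPM (-1.40 ± 0.15). Ccne1 (-1.40), Mcm3 (-1.38) and Pcna (-1.34) were the other large changes. Ccnd2 was 17.4 and 19.3 TPM in mutant pro-B cells and 6.85 and 8.60 TPM in mutant pre-B cells (-1.15 ± 0.14), and Ccnd3 differed by -0.65 ± 0.09. Mki67 read 189 and 210 TPM against 173 and 116 TPM, and the second pre-B library was the lowest of the 4. Of the 60 further genes, 52 were lower and 2 higher, led by Gins2 (-1.94), Tk1 (-1.77) and Gins1 (-1.63), and Myc fell by 3.25.

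Whether the Wapl mutation changed these genes within a stage was tested next. In pro-B cells the mutant differed in 5 of the 38 genes, mostly of G1, against 2153 of all 12465 genes tested. The share of the 38 was thus no larger than that of all genes. Ccnd3 was higher and Ccnd2, Cdk4, Ccne1 and Cdt1 were lower, with 7.65% of all genes called higher and 9.63% lower. Ccnd2 fell from 90.1 and 85.9 TPM to 17.4 and 19.3 TPM, with no overlap (-2.20 ± 0.14, adjusted p = 0.000104), or 4.60-fold. Cdk4 fell from 826 and 783 TPM to 589 and 520 TPM (-0.54 ± 0.08, adjusted p = 0.00400). Ccne1 fell from 61.6 and 63.9 TPM to 45.3 and 41.1 TPM (-0.53 ± 0.11, adjusted p = 0.0163). Cdt1, the licensing factor that works with Cdc6, fell from 150 and 143 TPM to 119 and 103 TPM (-0.40 ± 0.09, adjusted p = 0.0226). Ccnd3 rose from 1559 and 1414 TPM to 1932 and 1887 TPM (0.36 ± 0.09, adjusted p = 0.0293). Cdk6, at 88.2 and 101 TPM in the mutant, differed by -0.04 ± 0.13, and Mki67, at 189 and 210 TPM, by 0.08 ± 0.20. The licensing genes had a median of -0.36 with 1 of 10 called and 6 with an unadjusted p under 0.05. The spindle genes had a median of 0.01 with 0 of 9 called and 1 with an unadjusted p under 0.05. Among all 12465 genes tested 4003 had an unadjusted p under 0.05. The ratio of licensing to spindle TPM was 1.75 and 1.84 in the mutant, below the Wapl(+/+) values.

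Among the 60 further genes, E2f3 (-0.81) and the phosphatase gene Cdc25a (-0.54) were lower and none was higher. An unadjusted p under 0.05 was reached by 13 of the 60, against 4003 of all 12465 genes tested. Of the drivers and brakes, Myc fell by 1.28, from 164 and 156 TPM to 68.3 and 62.4 TPM. Btg1 (1.12), Il7r (0.99), Cdkn1a (0.90), Klf2 (0.82), Bcl6 (0.80) and Btg2 (0.74) rose. Of the 38 genes 2 were called without either Wapl(+/+) library or without the second mutant library, and 4 without the first mutant library. The 2 groups fitted alone called 10 of the 38, all lower, among them E2f1, Cdc6 and Mcm2 to Mcm5, but not Ccnd3. Sex went in part with genotype in both stages. The Y-linked Eif2s3y read 5.75 to 28.9 TPM in the Wapl(+/+) libraries and 0 to 0.0668 TPM in the mutants. Xist, expressed in female cells, read 22.0 to 45.0 TPM in the Wapl(+/+) libraries and 48.6 to 62.8 TPM in the mutants. The Wapl(+/+) libraries thus held RNA of both sexes and the mutants of females, so sex and genotype cannot be told apart. The 6 T cell markers summed to 71.6 and 70.8 TPM in Wapl(+/+) pro-B cells and 43.7 and 43.3 TPM in the mutants. Among them Cd3e went the other way, at 0.699 and 0.572 TPM against 1.61 and 0.853 TPM in the mutants. The 4 pre-B markers summed to 614 and 713 TPM against 938 and 1182 TPM. The part of sex and of these markers in the differences was not tested.

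In pre-B cells 1 of the 38 genes was called, with 1.74% of all genes called higher and 1.28% lower. Ccnd3 rose from 903 and 854 TPM to 1146 and 1291 TPM (0.47 ± 0.09, adjusted p = 0.0340). No gene of the 38 was called lower by limma, though 36 of 38 had a negative difference. An unadjusted p under 0.05 was reached by 31 of the 38, against 1954 of all 12465 genes tested. The median was -0.42, against -0.01 over all genes. The values were lower mainly in the second mutant library, which held the lowest of the 4 pre-B values for 34 of the 38 genes. Mki67 read 173 and 116 TPM in the mutant against 167 and 214 TPM (-0.42 ± 0.20, adjusted p = 0.379). Top2a read 264 and 165 TPM against 291 and 337 TPM. Without the first mutant library 20 of the 38 were called lower, including Ccnb1 (-1.005) and Top2a (-0.92). Without the second, or without either Wapl(+/+) library, none was called. The share of all genes called in these fits is not given here, so the counts cannot be set against it. Ccnd2 was 6.85 and 8.60 TPM in the mutant against 8.65 and 10.7 TPM (-0.29 ± 0.14, adjusted p = 0.367), and Cdk6 differed by 0.12 ± 0.13. Of the 60 further genes Ccnf, which encodes cyclin F, was called (-0.51), and 46 had an unadjusted p under 0.05. Other markers moved too: the 5 pro-B markers summed to 435 and 553 TPM in the mutant against 62.0 and 74.8 TPM. The 6 markers of later B cells summed to 429 and 493 TPM against 714 and 753 TPM. The 6 myeloid markers overlapped in sum, at 1630 and 1522 TPM against 1270 and 2257 TPM. Among them Lyz2 overlapped (216 and 224 TPM against 215 and 272 TPM). Mpo read 77.9 and 105 TPM against 141 and 188 TPM, and Elane 56.7 and 80.7 TPM against 113 and 132 TPM. Their part in these values was not tested.

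The difference of the 2 mutant effects was tested in the same fit. Ccnd2 was the 1 gene of the 38 called, with 1.97% of all genes called higher and 1.39% lower: its mutant effect was 1.91 ± 0.19 higher in pre-B than in pro-B cells (adjusted p = 0.00398). The Myc effect differed the same way (1.26), and those of Il7r (-0.90), Btg1 (-0.82) and Btg2 (-0.68) the other way. Ccnd3 (0.11 ± 0.13), Cdk6 (0.16 ± 0.18) and Mki67 (-0.50 ± 0.28) were not called. No gene of the 38 had a called negative difference by limma, and 12 had an unadjusted p under 0.05, against 2214 of all 12465. The medians were -0.58 for mitotic entry and -0.50 for the spindle, against -0.06 for licensing. Without the first mutant pre-B library 7 genes were called with a negative difference (Ccna2, Ccnb1, Cdk1, Aurkb, Bub1b, Cenpa and Kif11).

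In pro-B cells grown for 3 days the mutant effect on Ccnd2 seen in sorted cells did not appear. Ccnd2 read 197 and 160 TPM in Wapl(+/+) and 220, 207 and 216 TPM in Wapl(∆P1,2/∆P1,2) cultures (0.27 ± 0.12, adjusted p = 0.141). Cultured and sorted cells were not compared by a test, since they came from separate sets. Of the 38 genes 3 were higher and 1 lower, with 3.16% of all genes called higher and 18.5% lower, and a median over all genes of -0.18. Ccne2 read 28.0 and 21.1 TPM against 34.5, 45.0 and 43.4 TPM in the mutant (0.72 ± 0.18, adjusted p = 0.0242). Pcna read 953 and 947 TPM against 1236, 1422 and 1413 TPM (0.51 ± 0.11, adjusted p = 0.0166). Rrm2 read 374 and 389 TPM against 558, 513 and 482 TPM (0.44 ± 0.11, adjusted p = 0.0249). The groups did not overlap in these 3, nor in others of the 38 such as Ccnd2. The share of all genes without overlap was not counted. Foxm1, the factor that drives mitotic genes, read 109 and 117 TPM against 91.7, 66.3 and 64.4 TPM (-0.62 ± 0.16, adjusted p = 0.0324).

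Ccnd3 read 641 and 852 TPM against 1138, 942 and 999 TPM in culture (0.47 ± 0.15, adjusted p = 0.0587), and Cdk6 read 38.5 and 43.7 TPM against 35.4, 31.9 and 29.4 TPM (-0.34 ± 0.14, adjusted p = 0.115). Mki67 read 154 and 158 TPM against 215, 73.5 and 67.7 TPM (-0.60 ± 0.43, adjusted p = 0.338), so that the first mutant library lay above and the other 2 below the Wapl(+/+) cultures. Without that first library 6 genes were called higher and 4 lower, Mki67 among the lower ones (-1.13). Without either Wapl(+/+) library, or without the second mutant library, none was called. Quantile normalization called 7 higher and 1 lower. Among the 60 further genes Rb1, the retinoblastoma gene, rose (0.62) and 4 fell (Ccnd1, -1.20, Pttg1, -0.88, Cdc25b, -0.77, and Anln, -0.69). Il7r (1.37) and Klf2 (0.53) rose and Bcl6 fell by 0.66. Both Wapl(+/+) cultures and the third mutant culture held Xist RNA (23.2 to 56.0 TPM), and the other 2 mutant cultures held Eif2s3y (71.4 and 72.3 TPM), so sex differed in part with genotype. The 3 plasmacytoid dendritic markers summed to 299 and 415 TPM in the Wapl(+/+) cultures and 91.8 to 110.3 TPM in the mutant ones, and their part in these values was not tested.

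Loss of Pax5 was compared between sorted Pax5(-/-) progenitors and Pax5(+/+) pro-B cells, where cell type label and genotype change together. Ccnd2, Cdk6, Cdk4 and Cdt1 were higher in the progenitors. Ccnd3, E2f2, both cyclin E genes, the genes of nucleotide supply and most mitotic genes were lower, while the Mcm genes were not called. By limma 4 of the 38 genes were higher and 25 lower, with 15.5% of all genes called higher and 21.4% lower. By role, 3 G1 genes were higher and 5 lower of 9, 1 licensing gene was higher and 2 lower of 10, 3 of 3 nucleotide genes were lower, as were 7 of 7 mitotic entry genes and 8 of 9 spindle genes. The medians were 0.07 for licensing, -0.92 for mitotic entry and -0.69 for the spindle, against -0.11 over all genes tested.

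**Figure D5:**
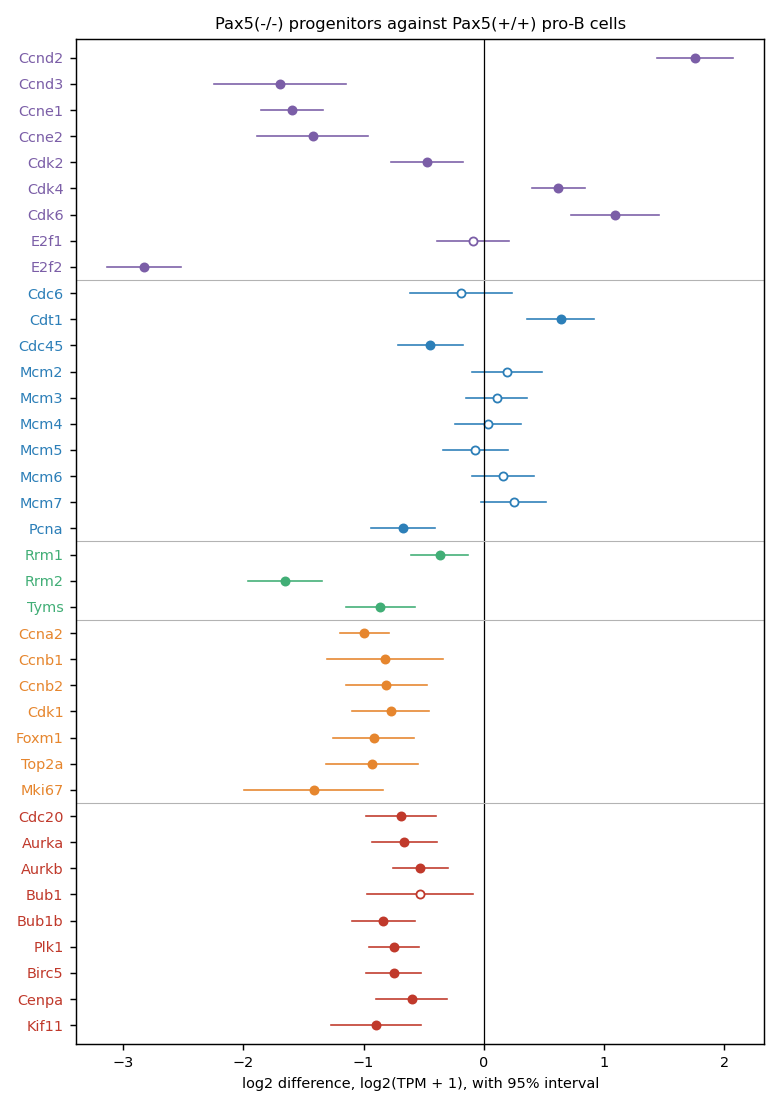
Log2 difference of Pax5(-/-) progenitors against Pax5(+/+) pro-B cells on the log2(TPM + 1) scale with its 95% interval for each gene, coloured by role; filled symbols passed an adjusted p of 0.05. Ccnd2, Cdk6, Cdt1 and Cdk4 lie right of 0, the Mcm genes near 0, and mitotic genes left of 0.

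Ccnd2 read 82.9, 76.1 and 102 TPM in Pax5(+/+) pro-B cells and 307 and 280 TPM in Pax5(-/-) progenitors (1.75 ± 0.14, adjusted p = 0.000103), or 3.37-fold higher. Cdk6 read 81.2, 89.9 and 82.1 TPM against 216 and 151 TPM (1.09 ± 0.16, adjusted p = 0.00171). Cdt1 rose by 0.64 and Cdk4 by 0.62. Ccnd3 moved against Ccnd2, with 1392, 1598 and 1304 TPM against 597 and 326 TPM (-1.69 ± 0.24, adjusted p = 0.00153). E2f2 had the largest change of the 38, from 377, 396 and 377 TPM to 61.7 and 46.1 TPM (-2.82 ± 0.13, adjusted p = 1.14e-05), or 7.07-fold lower. The groups did not overlap for Ccnd2, Cdk6, Ccnd3 or E2f2. Rrm2 fell from 660, 569 and 626 TPM to 222 and 172 TPM (-1.65 ± 0.13, adjusted p = 0.000110). Ccne1 fell from 73.7, 68.3 and 76.7 TPM to 23.2 and 23.7 TPM (-1.59 ± 0.11, adjusted p = 6.16e-05). Ccne2 fell from 19.6, 21.2 and 22.1 TPM to 8.97 and 5.73 TPM (-1.42 ± 0.20, adjusted p = 0.00155). Mki67 fell from 171, 211 and 307 TPM to 97.8 and 70.3 TPM (-1.42 ± 0.25, adjusted p = 0.00403), again without overlap.

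The licensing to spindle ratio was 1.62 to 1.80 in the Pax5(+/+) libraries and 2.55 and 3.03 in the Pax5(-/-) ones. Without one or the other Pax5(-/-) library 16 or 14 genes were called lower, and 3 or 4 higher. Of the 60 further genes 33 were lower and 1 higher. Cdc25b, a phosphatase that activates Cdk1, fell by 3.35, Rb1 by 1.98, the E2F repressor genes E2f7 and E2f8 by 1.68 and 1.49, and Ndc80, of the kinetochore, by 1.19, while Ccnd1, another D-type cyclin, rose by 1.86. Of the drivers and brakes Myc was higher (1.23), from 197 to 214 TPM to 456 and 520 TPM, and 9 of the 12 were lower, among them Klf2 (-2.87), Cdkn1a (-2.20), Cdkn2c (-2.09) and Cdkn1b (-1.20). The 6 T cell markers summed to 200.1 and 205 TPM in the progenitors against 56.6 to 73.7 TPM, with Cd3e at 0 in both progenitor libraries, and the plasma cell markers to 632 and 789.9 TPM against 97.3 to 107 TPM. Their part in the cell cycle values was not tested. Eif2s3y read 17.6 to 40.7 TPM in the libraries of this set. Xist read 4.32, 0 and 0.0615 TPM in Pax5(+/+) and 14.2 and 7.60 TPM in Pax5(-/-) libraries. Sex thus differed in part with genotype, and its part was not tested.

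In the pro-B cells labelled Eed(F/F) Rag1-cre, Ccnd2 was the 1 gene of the 38 called when all 9 libraries were fitted with the range of library numbers as a term, with 12.6% of all genes called higher and 9.17% lower. Ccnd2 read 89.6, 132, 158, 163 and 163 TPM, against 35.1 TPM in the control without Cre and 49.0, 142 and 62.7 TPM in the Eed(F/+) Rag1-cre controls (1.10 ± 0.32, adjusted p = 0.0447). The groups overlapped in 1 control library, replicate 2, at 142 TPM. Ccnd2 was not called without a filter, with a filter at 5 TPM, or when any 1 library other than Eed(F/+) Rag1-cre replicates 1 and 2 was left out. Cdk6 read 44.1, 65.3, 45.2, 54.1 and 42.2 TPM against 75.8, 57.2, 105 and 65.1 TPM (-0.47 ± 0.20, adjusted p = 0.139). Ccnd3 read 1279 to 1827 TPM against 807 to 1790 TPM (0.16 ± 0.24, adjusted p = 0.667). Mki67 read 270, 356, 101, 92.7 and 102 TPM against 380, 91.0, 514 and 196 TPM (-0.27 ± 0.54, adjusted p = 0.749). No gene of the 38 was called lower, and 2 had an unadjusted p under 0.05 in either direction, against 4576 of all 12338.

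The result depended on the library that stood apart. In Eed(F/+) Rag1-cre replicate 1 mitotic entry genes summed to 492 TPM and spindle genes to 518 TPM, against 1074 to 2889 TPM and 1432 to 3294 TPM in the other 8 libraries, while licensing genes summed to 1960 TPM against 3446 to 5000 TPM. Its licensing to spindle ratio was 3.78, against 1.35 to 1.83 in the other 3 controls and 2.09 to 3.38 in the libraries labelled Eed(F/F) Rag1-cre. The 5 pro-B markers summed to 15597 TPM there, with Igll1 at 7941 TPM, above the 4621 to 8765 TPM of the other 8. Its 6 myeloid markers summed to 300.1 TPM, the highest of the 9 (39.8 to 170 TPM in the rest). Its 6 T cell markers summed to 82.7 TPM (27.8 to 82.4 TPM in the rest), with Cd3e among them at 0.0831 TPM. Without this library the same fit called 7 of the 38 genes higher and 19 lower, among 5064 genes called of all tested. The 19 were Cdk6, E2f2, Tyms, all 7 genes of mitotic entry and all 9 of the spindle, led by Mki67 (-0.72), Kif11 (-0.67) and Foxm1 (-0.66), and the 7 were Ccnd2 (0.92), Ccne1, E2f1, Cdc6, Cdt1, Mcm2 and Mcm4. The median over the 38 was 0.20 with it and -0.18 without it, and it was -0.21 without Eed(F/F) Rag1-cre replicate 2, the single Eed(F/F) Rag1-cre library in the same range of library numbers.

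Within the range of highest library numbers, which does not hold that library, 1 control stood against 3 Eed(F/F) Rag1-cre libraries, and the lone control is assumed to vary like them. There 1 gene was higher (Ccnd2, 1.35) and 4 lower (Mki67, Top2a, Kif11 and Foxm1). Without the term for the range and without that library 0 were higher and 3 lower. In a different fit, with the term kept and only Eed(F/+) Rag1-cre replicate 2 left out, 6 were higher and 0 lower. In the middle range, where that library is 1 of 2 controls against 1 Eed(F/F) Rag1-cre library, none was called, nor was any other gene. Of the 60 further genes Ccnd1 rose (1.47) and Cdc25b fell by 1.84 in the fit of all 9 libraries. Klf2 (2.23), Cdkn1a (1.47) and Mycn (0.86) rose and Foxo1 (-1.15), Cdkn1b (-1.001) and Ccng2 (-0.65) fell. Cdkn1a read 315 to 347 TPM against 80.5 to 137 TPM, without overlap. The 6 markers of later B cells summed to 425 to 669.5 TPM against 235 to 299.6 TPM in the controls, and the 3 plasmacytoid dendritic markers to 247 to 344 TPM against 103 to 159.6 TPM. Their part was not tested.

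In immature B cells none of the 38 genes was called in any of 5 comparisons of immunoglobulin heavy-chain alleles by limma. For Igh(890-inv/+), with 0.544% of all genes called, 2 of the 38 had an unadjusted p under 0.05, against 617 of all 11406. Ccnd2 was 1 of the 2 and read 262 and 274 TPM in Igh(+/+) and 206 and 227 TPM in Igh(890-inv/+) (-0.31 ± 0.07, adjusted p = 0.346). Ccnd3 read 334 and 294 TPM against 312 and 322 TPM (0.02 ± 0.07), Cdk6 11.8 and 16.8 TPM against 8.26 and 14.9 TPM (-0.32 ± 0.28), and Mki67 24.0 and 29.2 TPM against 22.4 and 27.3 TPM (-0.09 ± 0.14). The groups overlapped in these last 3 genes and not in Ccnd2.

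In the next set, for Igh(CBE/+), with 0.00834% of all genes called, and for Igh(CBE-inv/+), with 0.0834% called, 0 of the 38 had an unadjusted p under 0.05. Of all 11987 genes tested in this set, 294 and 298 had one. Ccnd2 read 286, 290 and 225 TPM in Igh(+/+), 216 and 226 TPM in Igh(CBE/+) and 283 and 195 TPM in Igh(CBE-inv/+), differences of -0.26 ± 0.16 and -0.17 ± 0.16. Ccnd3 read 312, 277 and 354 TPM, 298 and 325 TPM, and 298 and 362 TPM in the same order, with differences of -0.01 ± 0.12 and 0.07 ± 0.12. Cdk6 read 25.7, 23.7 and 20.9 TPM, then 19.3 and 22.6 TPM, then 26.5 and 24.9 TPM (-0.15 ± 0.12 and 0.13 ± 0.12). Mki67 read 38.4, 35.7 and 31.3 TPM, then 38.1 and 39.7 TPM, then 36.7 and 30.0 TPM (0.15 ± 0.12 and -0.08 ± 0.12). All 4 genes overlapped between Igh(+/+) and both alleles. Eif2s3y read 26.9, 17.6 and 5.84 TPM in Igh(+/+), 0 TPM in both Igh(CBE/+) libraries, and 36.6 and 0 TPM in Igh(CBE-inv/+). Sex thus differed in part with genotype, and its part was not tested.

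The Igh(V8-8/∆890) comparison, with 0.235% of all genes called, had 1 of the 38 at an unadjusted p under 0.05, against 220 of all 11895. Ccnd2 read 276 and 247 TPM in Igh(+/∆890) and 282 and 286 TPM in Igh(V8-8/∆890) (0.12 ± 0.14), and Ccnd3 read 368 and 399 TPM against 333 and 338 TPM (-0.19 ± 0.08). Cdk6 read 24.3 and 23.0 TPM against 19.8 and 24.8 TPM (-0.09 ± 0.14), and Mki67 64.9 and 41.7 TPM against 47.9 and 58.1 TPM (0.02 ± 0.21). Ccnd2 and Ccnd3 did not overlap between the groups, while Cdk6 and Mki67 did. Eif2s3y read 13.3 and 32.7 TPM in Igh(+/∆890) and 0 and 17.0 TPM in Igh(V8-8/∆890), and the part of sex was not tested. The median differences over the 38 lay between -0.30 and 0.03 across the 5 comparisons.

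The largest departure was in Igh(V8-8-inv/∆890), where 37 of the 38 differences were negative and 16 had an unadjusted p under 0.05, against 723 of all 11895. The median was -0.30 against -0.11 over all genes, with 0.219% of all genes called. Mki67 read 64.9 and 41.7 TPM in Igh(+/∆890) and 42.7 and 38.3 TPM in Igh(V8-8-inv/∆890) (-0.36 ± 0.21, adjusted p = 0.696). Cdk6 read 24.3 and 23.0 TPM against 18.2 and 18.9 TPM (-0.34 ± 0.14, adjusted p = 0.696). Ccnd2 read 276 and 247 TPM against 281 and 213 TPM (-0.09 ± 0.14), and Ccnd3 368 and 399 TPM against 368 and 370 TPM (-0.05 ± 0.08). Both genes overlapped between the groups, while Cdk6 did not. The second Igh(V8-8-inv/∆890) library held the lowest value of this set for 32 of the 38 genes. The first Igh(+/∆890) library was high for the mitotic genes, and without the second one 8 genes were called lower, among 1753 of all genes. The myeloid markers summed to 1326 and 2662 TPM in Igh(+/∆890) and 5209.9 and 1504 TPM in Igh(V8-8-inv/∆890), and their part was not tested.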

How the data were processed

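Each of the 44 RNA libraries had 1 deposited table of TPM per gene. In 11 tables a bare library number heads the column and the values are handled as a signal that the authors scaled to a total of 1000000 per library, the same scale as the TPM tables. The submitters' processing notes name featureCounts 1.5.0, DESeq2 2.1.14.1 and the builds mm9 and mm10, without roles. Of the 38 genes 5 (Ccna2, Ccne2, Ccnd3, Cdc20 and Foxm1) have a row name with an overlap tag, and their reads may be shared with another gene. Rows below 1 TPM in too many libraries were dropped (1 TPM or more in as many libraries as the smallest group), and log2(TPM + 1) was fitted with limma 3.58.1 (R 4.3.3, trend) per set of libraries, with Benjamini-Hochberg adjustment over all genes tested. Differences are on that log2 scale, which understates low genes. All 38 genes passed the filter in each of 13 comparisons. Where groups are said not to overlap, the share of all genes without overlap was not counted. The fit was tested on simulated data. The genes and lists were chosen with earlier results of these data known. Genes named follow a fixed rule: 17 genes in the stage comparison, elsewhere the 8 largest called changes with Ccnd2, Ccnd3, Cdk6 and Mki67, and up to 6 further cycle genes. Drivers and brakes, and genes named under a left-out library, were named after their values were seen. A few results on genes outside the 38 are not reported here.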

Additional observations from a re-analysis of the deposited data

Results flagged for a closer look

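The effect of Wapl(∆P1,2/∆P1,2) on Ccnd2 differed between stages by a test of the difference itself, by 1.91 on the log2 scale, and was less negative in pre-B than in pro-B cells. Ccnd2 stood at 8.65 and 10.7 TPM in Wapl(+/+) pre-B cells, against 90.1 and 85.9 TPM in Wapl(+/+) pro-B cells.

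A single library lay far from the others of its group for 7 of 76 combinations of gene and group, the groups being the 5 libraries labelled Eed(F/F) Rag1-cre and their 4 controls. The rule is set to pick about 1 in 20 by chance for a single gene in like libraries. That rate cannot be set against the 7 of 76. The genes share the same libraries and vary together, so the combinations are not independent. Both groups also pool several ranges of library numbers, and the controls mix genotypes. The count is therefore a description without a test. The 4 cases in the controls restate the library that stood apart. In the controls the distant library was Eed(F/+) Rag1-cre replicate 1 in all 4 cases: Tyms at 19.7 TPM, Cdk1 at 19.0 TPM, Plk1 at 30.5 TPM and Kif11 at 12.4 TPM. Among the libraries labelled Eed(F/F) Rag1-cre it was replicate 1 in all 3 cases: Cdk4 at 837 TPM, E2f2 at 191 TPM and Mcm2 at 383 TPM. That replicate shares its range of library numbers, the lowest of 3, with the control that lacked Cre.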

How the results depend on the processing

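The 23 genes called in the Wapl(+/+) stage comparison stayed within 1.5 times under every alternative and every left-out library (22 to 23 without 1 library), as did the mutant stage comparison (31 to 38). In Wapl(∆P1,2/∆P1,2) pro-B cells 2 to 4 were called without 1 library and 10 with the 2 groups alone. In pre-B cells 0 to 21 were called without 1 library, and 0 without a filter on low values, with quantile normalization or with the 2 groups alone. For the difference of the mutant effects the range was 1 to 8. In culture it was 0 to 10, with 2 called without a filter and 8 with quantile normalization. For Pax5(-/-) it was 18 to 30. For Eed(F/F) Rag1-cre it was 0 to 26, with 0 called without a filter, at a filter of 5 TPM, with Cre-carrying controls alone and within the middle range of library numbers. In 2 settings chosen after seeing the data, 3 were called without the range term and without the library that stood apart, and 5 within the highest range, where the 1 control is assumed to vary like the other group. The same holds wherever a left-out library leaves 1 in its group. The middle range alone was also chosen after seeing the data. In immature B cells the range was 0 to 0 in 4 comparisons and 0 to 8 for Igh(V8-8-inv/∆890). Where a left-out library changed a count, the cause was not tested. Except where a count of all genes is printed above, the share of all genes called in these fits is not given. Such counts of the 38 therefore do not show a change particular to them.

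Without Eed(F/+) Rag1-cre replicate 1, 14 of the 38 genes changed sign in the Eed comparison and 10 of these were then called; the same 14 changed sign within the highest range. Among the genes that the naming rule picks, the differences that changed sign were of genes not called with all libraries, and are given as the lowest and highest value without 1 library. In the Wapl(+/+) stage comparison they were Mki67 (-0.18 to 0.18) and Cdc20 (-0.078 to 0.11). For the Wapl mutant they were Cdk6 (-0.14 to 0.056) and Mki67 (-0.061 to 0.22) in pro-B cells and Cdk6 (-0.031 to 0.26) in pre-B cells. For Eed they were Ccnd3 (-0.026 to 0.30, and -0.070 within the highest range) and Mki67 (-0.79 to 0.20, and 0.71 within the middle range). For 890-inv they were Ccnd3 (-0.074 to 0.11), Cdk6 (-0.71 to 0.069) and Mki67 (-0.23 to 0.042). For CBE it was Ccnd3 (-0.094 to 0.083). For CBE-inv they were Ccnd2 (-0.44 to 0.095), Ccnd3 (-0.066 to 0.21) and Mki67 (-0.22 to 0.067). For V8-8 they were Cdk6 (-0.24 to 0.064) and Mki67 (-0.29 to 0.33, and -0.022 with quantile normalization). For V8-8-inv they were Ccnd2 (-0.29 to 0.11) and Ccnd3 (-0.11 to 0.0040).

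No paired analysis was possible because the labels carry no replicate numbers, and the numbers used here follow accession order. Depth is unknown, so genes of a few TPM have an unknown counting error. Each group has 1 to 5 libraries.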
